A study of Mus musculus with 2 samples.

Results

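Mir22 is the mouse gene for the microRNA miR-22. It was chosen by its identity, as the table row whose Ensembl identifier (ENSMUSG00000065529.1) carries that name in GENCODE vM21, and it is 1 of 2202 microRNA genes in the tables. That rule uses no measured value. The tables hold small RNA of under 30 nt from the gastrocnemius, the large calf muscle, of male B6CASTF1/J mice at 14 days of age, in 1 group of 2 biological replicates with 1 library each. B6CASTF1/J mice are the first-generation cross of C57BL/6 with CAST/EiJ. No treatment, genotype change or second tissue was part of the design, so no condition was compared with another. Both samples carry the same donor identifier and mention several males, so it is unclear if each came from a single animal or from pooled animals. Every SD and p below therefore measures only how these 2 samples differ, which may be technical.

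MicroRNAs are cut from a hairpin transcript, and 1 of the mature arms guides a silencing complex to messenger RNAs through its seed, bases 2 to 8. miR-22 is a conserved microRNA found in many tissues and abundant in heart and skeletal muscle. It is known as a promoter of cardiac hypertrophy and of myoblast differentiation, and as a regulator of lipid and oxidative metabolism. Reported targets include the deacetylases Hdac4 and Sirt1 and the lipid-metabolism receptor Ppara.

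The sequences of Mir22 are given first, because their presence at other loci would bear on what the counts can show. They are from RefSeq on GRCm38.p6, 5′ to 3′. In the hairpin (chr11:75463716-75463810, plus strand, 95 bases) the capitals mark both mature arms, and in the arms they mark the seed. The 5′ arm lies at chr11:75463734-75463755 and the 3′ arm at chr11:75463772-75463793, each 22 bases long.
Mir22 hairpin: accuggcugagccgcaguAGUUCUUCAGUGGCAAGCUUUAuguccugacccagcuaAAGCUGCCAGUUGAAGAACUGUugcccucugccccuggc
mmu-miR-22-5p: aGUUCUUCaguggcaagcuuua
mmu-miR-22-3p: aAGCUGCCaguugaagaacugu

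The hairpin folded to a predicted free energy of -41.9 kcal/mol, with 72 of its 95 bases paired. Of the 22 bases of the 5′ arm, 19 paired with the 3′ arm, and 16 bases separate the arms. All 7 seed bases of each arm were paired within the hairpin. Reads were counted for the whole hairpin gene, so every level below is that of both arms together.

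Neither seed is shared. Among 1738 mature mouse microRNAs in RefSeq, 556 have a seed in common with another one, but 0 others have the seed of miR-22-3p and 0 others that of miR-22-5p. For bases 2 to 7 alone, miR-22-5p has 2 matches, mmu-miR-6935-3p and mmu-miR-7092-3p, and miR-22-3p has 0. The sequence is also particular to its locus among transcripts. Of the 78 runs of 18 bases in the hairpin, searched on both strands in 141767 annotated transcripts of 55450 genes, the matches fell in Mir22, Mir22hg and Tlcd2, which overlap at that locus, and in no other gene. Genome sequence outside transcripts was not searched. This bears on the level, because reads with more than 1 mapping place were counted for no gene in these tables.

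Mir22 lies in an exon of Mir22hg, a long non-coding host gene (ENSMUSG00000085148.1, chromosome 11, 75461539 to 75466676, plus strand). Both annotated Mir22hg transcripts carry the hairpin in exon 2, 23 bases after the start of that exon, and the hairpin starts 2177 bases from the start of the host. The annotation does not give Mir22 to Mir22hg alone. Of the 4 transcripts of Tlcd2 (ENSMUSG00000038217.13), 1 begins within the first exon of Mir22hg and also holds the hairpin in its exon 2. That transcript is annotated as a non-coding processed transcript. The 2 coding transcripts of Tlcd2 start 4.27 kb after Mir22, so no coding transcript spans the hairpin.

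**Figure D1:**
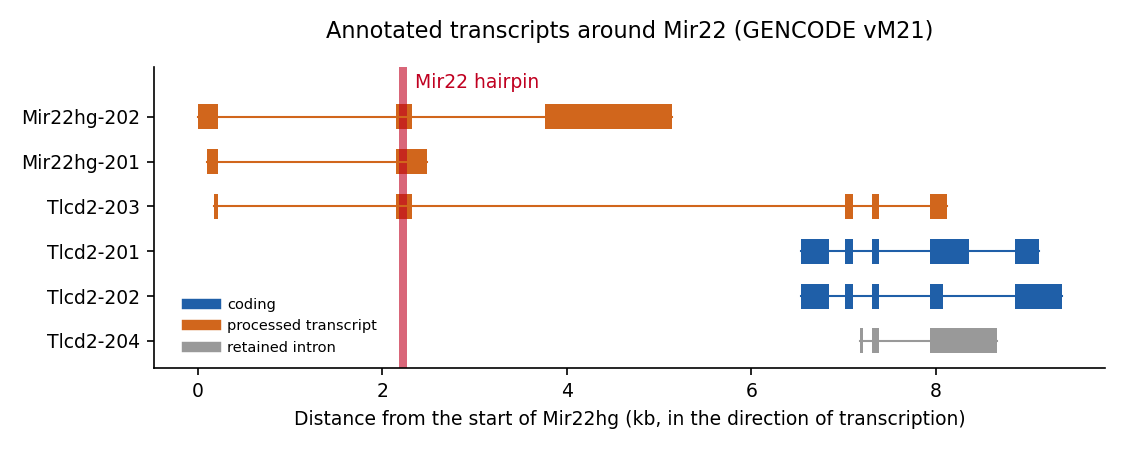
Annotated transcripts around Mir22, with distance from the start of Mir22hg in kb on the x axis and 1 transcript per line (boxes are exons, lines introns, and the red band is the Mir22 hairpin). The band crosses exon 2 of both Mir22hg transcripts and of the non-coding Tlcd2 transcript, and lies before the start of both coding Tlcd2 transcripts.

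Mir22 had 37505 counts in replicate 1 and 27163 in replicate 2. The libraries held 2743657 and 2211254 counts assigned to microRNA genes on their own strand. As CPM, counts per 1000000 of that total, Mir22 stood at 13670 in the first library (95% Wilson interval 13533 to 13808) and at 12284 in the second (12140 to 12430). The intervals cover counting error only, since PCR reads are not independent molecules. They do not overlap, and replicate 1 was the higher library. The mean was 12977 CPM ± 980 (SD, n = 2), a coefficient of variation of 7.55%.

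Mir22 thus held 1.37% of assigned counts in replicate 1 and 1.23% in replicate 2, which is 1 in 73.2 and 1 in 81.4 counts. Of all reads in the libraries, 10056843 and 8189059, it held 0.373% and 0.332%. Reads that mapped to several loci made up 44.0% and 52.1% of the libraries. On the strand opposite to Mir22 the tables had 0 counts in both libraries, where a count of 0 allows up to 0.00800% and 0.0110% of its own-strand count. With either strand counted, the count of Mir22 was the same in each library, 37505 and 27163, so its level does not depend on how strand was treated other than through the total.

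The tissue label was checked on microRNAs known from defined cells, which in whole muscle include cells other than fibres. All 8 genes of a skeletal muscle list had counts in both libraries, and together they held 69451 and 69130 CPM, 5.08 and 5.63 times Mir22. Most of that was Mir206, the microRNA of skeletal muscle, and 6 of the 8 reached 10 CPM in both. Mir208a, of cardiac muscle, had 7 counts and 0. The endothelial list, Mir126a and Mir126b, summed to 98088 and 80434 CPM, at 7.18 and 6.55 times Mir22. In assigned counts that is above the skeletal muscle list. The muscle list includes genes of miR-1a, miR-133 and miR-486, whose counts can understate the microRNA, so these lists cannot be ordered by level. The smooth muscle list, Mir143 and Mir145a, summed to 36704 and 34921 CPM. The neuron list, 6 genes of miR-9 and miR-124, had 0 counts and 1, which checks nothing, because these microRNAs are encoded at several loci and reads with more than 1 mapping place were counted for no gene.

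In the order of mean CPM, Mir22 was number 20 of 2202 genes, of which 629 had a count in either library. This order is of assigned counts, and microRNAs encoded at several loci can stand too low in it. It was number 20 in replicate 1 and number 21 in replicate 2. The 19 genes above it held 74.2% of assigned counts. Its level was 52.5 times the median of the 258 genes at 10 CPM or more in replicate 1, and 47.7 times that median in replicate 2. A small RNA read covers a whole mature microRNA, so levels were compared as counts. Divided by the annotated hairpin length, Mir22 was number 23.

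**Figure D2:**
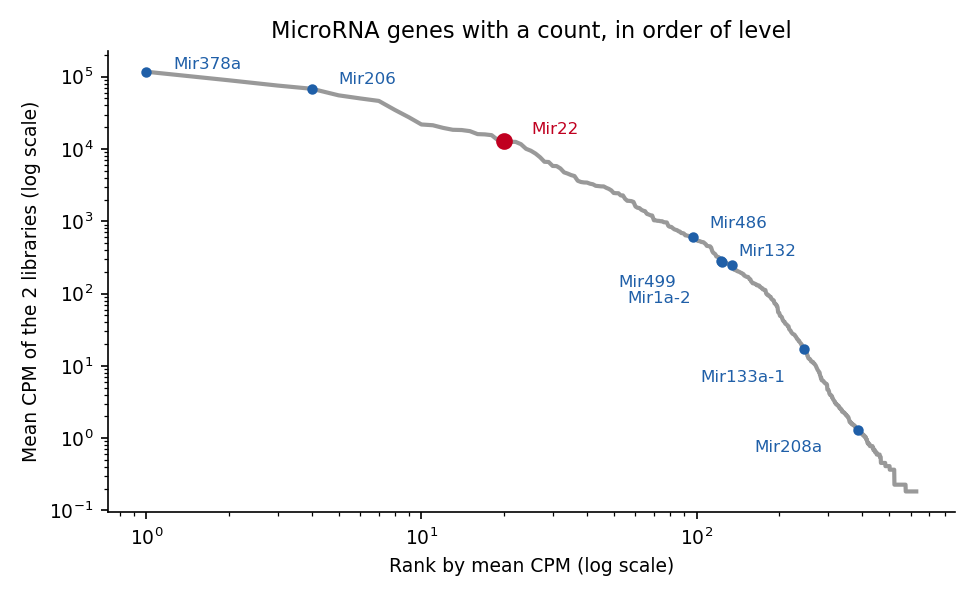
Mean CPM of the 2 libraries against rank for every microRNA gene with a count, both on log scales. Mir22 (red) stands at rank 20 with 12977 CPM, below Mir378a and Mir206, which are labelled with other genes of striated muscle. The counts of Mir1a-2 and Mir133a-1 can understate the microRNA.

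The 5 genes directly above Mir22 were Mir335, Mir21a, Mirlet7b, Mir487b and Mir322. The 5 directly below were Mir10b, Mir431, Mir139, Mir30d and Mir541. A gene was called apart from Mir22 where it lay on the same side in both libraries with intervals that did not overlap in either. By that rule 18 of the other genes with a count were above Mir22, 607 were below, and 3 were not apart. An exact permutation test of 2 values against 2 cannot give a p under 0.333, so this order is a description.

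The 3 genes that were not apart changed sides between the libraries. Mir322, an X-linked microRNA known to help myoblasts leave the cell cycle, stood at 12901 and 13449 CPM, below Mir22 in the first and above it in the second. Mir10b, encoded in the Hoxd cluster of body-axis genes, was at 14103 and 11018 CPM, above Mir22 in the first and below it in the second. Mir139, in an intron of the phosphodiesterase gene Pde2a, was at 10873 and 12458 CPM, again below in the first and above in the second. The ratio of Mir22 to these genes was 0.986 ± 0.103 for Mir322, 1.04 ± 0.103 for Mir10b and 1.12 ± 0.192 for Mir139 (SD, n = 2).

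Genes at the same level as Mir22 carry other seeds where RefSeq sequences were matched. Among the 19 mature sequences matched in RefSeq for Mir22 and its 10 neighbours, all 19 seeds differed. No sequence was matched for Mir30d and only 1 arm for Mir487b, so the rest of these genes was not compared. The arms of the 3 genes that were not apart are shown for comparison with those of Mir22, with the seed in capitals.
mmu-miR-322-5p: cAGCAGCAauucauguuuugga
mmu-miR-322-3p: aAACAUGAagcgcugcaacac
mmu-miR-10b-5p: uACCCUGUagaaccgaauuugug
mmu-miR-10b-3p: cAGAUUCGauucuaggggaaua
mmu-miR-139-5p: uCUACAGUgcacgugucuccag
mmu-miR-139-3p: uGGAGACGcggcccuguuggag

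Other neighbours stood apart by small margins. Mir431, from the imprinted Dlk1-Dio3 region, stood at 13336 and 11754 CPM, under Mir22 in both libraries by a ratio of 1.03 and 1.05. Mir487b of the same region was at 15488 and 15589 CPM, above Mir22 in both. Mir30d, at 10033 and 10104 CPM, was under it in both. Mir335, which lies within the imprinted gene Mest, stood at 16451 and 18890 CPM, and Mir22 stood at 0.741 ± 0.128 times its level. Mir541 was the lowest of the 10, at 9237 and 9671 CPM.

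**Figure D3:**
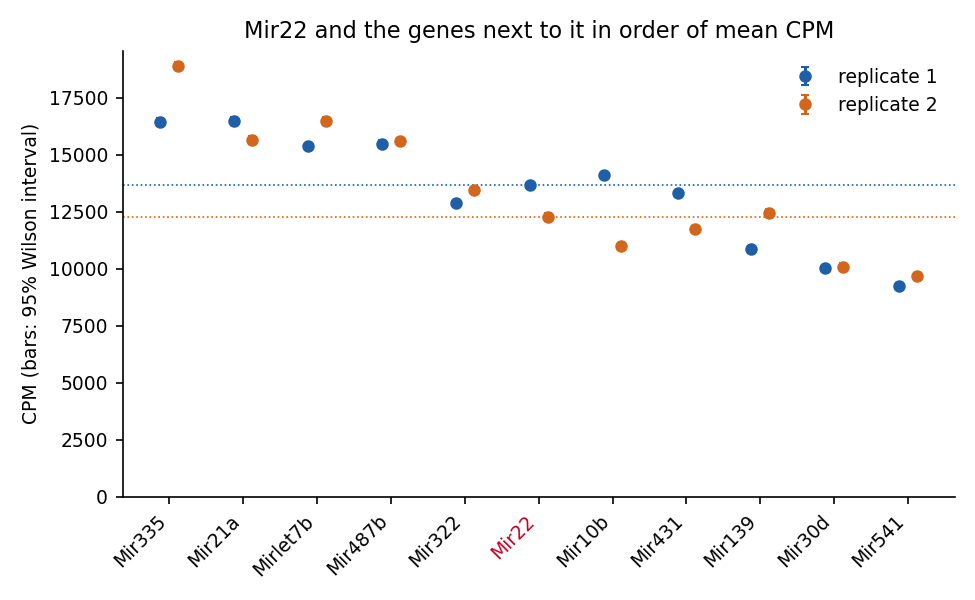
CPM of Mir22 and of the 5 genes above and the 5 below it, with 1 point per library; the 95% Wilson intervals are smaller than most points, and the dotted lines give Mir22 in each library (13670 and 12284 CPM). Mir322, Mir10b and Mir139 lie on different sides of their library's line.

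Mir22 was then set beside 23 microRNA genes known from growth, hypertrophy or metabolism of heart and skeletal muscle. Each of the 23 was counted at least once, and 19 were at 10 CPM or above in each library. In assigned counts Mir22 was under 4 of them in both libraries and above the other 19. The 4 were Mir378a, Mir206, Mir23a and Mir21a. The 19 include Mir486, Mir199a-2, Mir133b and both listed genes each of miR-1a and miR-133a, whose counts can understate the microRNA, so their place below Mir22 is not one of level.

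Mir378a, in an intron of the metabolic coactivator gene Ppargc1b, was at 110946 and 123636 CPM, and Mir22 stood at 0.111 ± 0.0169 times that level. Mir206 was at 68288 and 67909 CPM. The log2 ratio of Mir22 to Mir206 was -2.32 in replicate 1 and -2.47 in replicate 2, a mean of -2.39 ± 0.10 (SD, n = 2). Mir23a, known from control of atrophy genes, was at 20085 and 22548 CPM. Mir21a, a microRNA of many cell types that is known from cardiac fibrosis, was at 16497 and 15651 CPM, and Mir22 stood at 0.807 ± 0.0309 times its level.

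Below Mir22, levels fell over several orders of magnitude. Mir27b was at 5236 and 4265 CPM, and Mir214, a microRNA of connective tissue and muscle progenitors, at 4738 and 3708 CPM. Mir22 stood at 2.75 ± 0.191 and 3.10 ± 0.302 times these. Mir195a, which is known to halt cardiomyocyte division after birth, was at 2202 and 1638 CPM. Mir22 was 6.85 ± 0.911 times Mir195a.

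The microRNAs inside myosin genes were far lower. Mir499, in an intron of Myh7b, was at 338 and 217 CPM, and Mir22 was 40.5 times it in replicate 1 and 56.7 times in replicate 2. Mir208b, in an intron of the slow myosin gene Myh7, was at 84.6 and 84.1 CPM, and Mir22 was 154 ± 11.0 times that. Mir486, in an intron of Ank1, stood at 572 and 650 CPM, with Mir22 at 21.4 ± 3.56 times. That ratio is uncertain, since Mir3107 is annotated at the same place on the other strand and the mature sequences of the pair are near-identical. The collagen regulators Mir29a and Mir29c were at 216 and 301 CPM and at 124 and 133 CPM.

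Some low values in this list cannot be read as levels of the microRNA, since reads with several mapping places were left out of gene counts. Mir1a-2 was counted at 198 and 294 CPM, Mir133b at 20.8 and 31.7 CPM, Mir133a-1 at 18.2 and 15.8 CPM, Mir1a-1 at 14.9 and 9.50 CPM and Mir133a-2 at 1.82 and 1.81 CPM. The guide arms of miR-1a and miR-133a are each known to be encoded at a pair of loci, and RefSeq mature sequences for these arms were not matched here. The RefSeq arms of Mir133b lay in no other hairpin of the table, but its guide arm is known to be near-identical to miR-133a, so its count is uncertain. Mir199a-2, at 39.7 and 41.6 CPM, has a mature sequence that also lies in the hairpins of Mir199a-1 and Mir199b. The ratios of Mir22 to these genes are therefore not given. Of the 19 genes above Mir22, 17 could be matched to RefSeq mature sequences, and 0 of those had a mature sequence in another hairpin of the table.

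**Figure D4:**
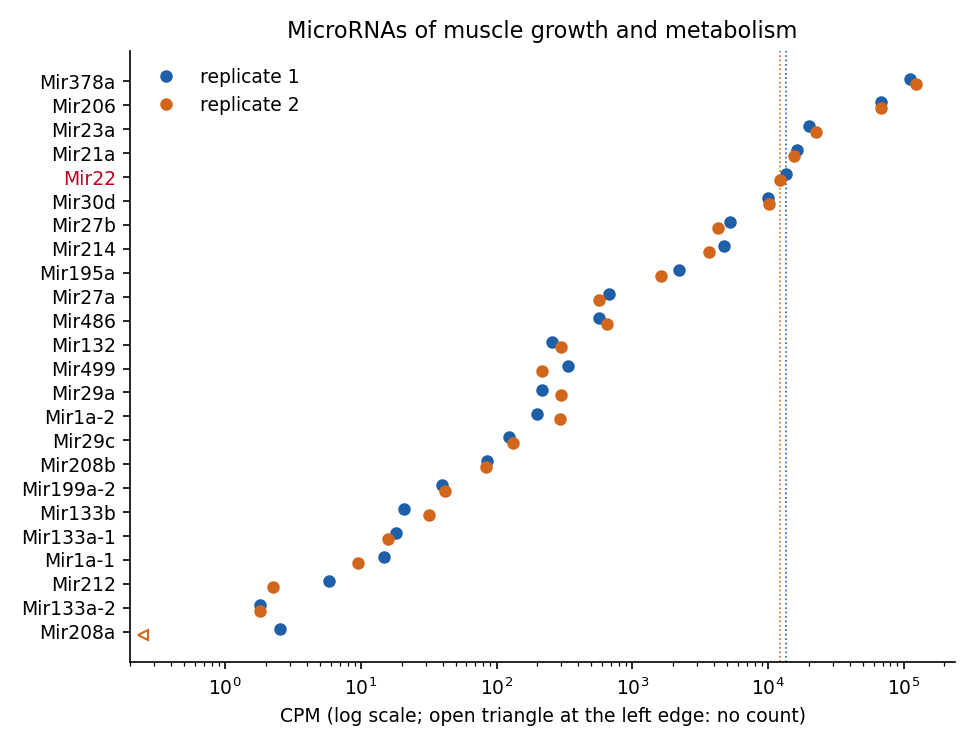
CPM in each library (log scale) of Mir22 and 23 microRNA genes of striated muscle growth and metabolism; the dotted lines give Mir22 in each library. Mir378a, Mir206, Mir23a and Mir21a lie to the right of Mir22 in both libraries and the other 19 to the left, down to Mir208a, which had no count in replicate 2.

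Within 500 kb of Mir22 on chromosome 11 the table lists 4 other microRNA genes, and all were far lower. Mir132 and Mir212, a pair known from neurons and from cardiac hypertrophy, lie 290.2 kb (Mir212) and 290.0 kb (Mir132) before it in an intron of the non-coding gene 1700016P03Rik. Mir132 had 708 counts in replicate 1 and 660 in replicate 2, or 258 and 298 CPM, so Mir22 was 47.1 ± 8.36 times Mir132. Mir212 had 16 counts and 5. Gm47300, 145.1 kb before Mir22, and Mir3971, 87.6 kb after it, had 0 counts in both libraries, where 3 counts would be 1.09 and 1.36 CPM.

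By host, 166 of the 2202 genes lay in a long non-coding gene and in no coding transcript on their strand. Mir22 was number 5 of these 166 in mean CPM and in each library. The higher ones were Mir206, Mirlet7d, Mir99a and Mirlet7b. Mirlet7d was at 18751 and 20414 CPM, and Mir99a at 20519 and 16379 CPM. Of the 166, 70 lay within an exon as Mir22 does, and among these Mir22 was number 3, after Mirlet7d and Mirlet7b. Mir22 is the single microRNA gene of its host, as were 80 genes of the class in all. The class was set by transcripts after the annotation had been seen, because by gene bodies Mir22 falls within the protein-coding gene Tlcd2 as well, and 1 other gene of the class was in that position.

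Of genes inside a long non-coding host, 36.7% reached 10 CPM in both libraries, against 10.9% of genes in a coding transcript and 8.58% of genes with no host. The class held 19.9% of assigned counts in replicate 1 and 19.5% in replicate 2. These shares describe the annotation and the libraries together and were not tested.

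The replicates differed in Mir22. With library sizes scaled by the trimmed mean of M-values (TMM), the log2 ratio of replicate 2 to replicate 1 was -0.17 on log2(CPM + 1), that is, replicate 1 was 1.13-fold higher (two-sided exact binomial test, Benjamini-Hochberg adjusted p = 1.39e-49 over 258 genes). This test compares the 2 libraries and covers counting error only. By the same rule 134 of the 258 genes tested (those at 10 CPM or above in each library) were called, which is 51.9%, and 72 were lower in replicate 2, which is 27.9%. At 1000 CPM or more 59 of 71 genes were called, and their log2 ratios ran from -0.44 to 0.28.

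The size of the difference in Mir22 was near the middle of those of all genes tested. The absolute log2 ratio was smaller than that of Mir22 in 124 of the 258 genes, 48.1%, and its median over all 258 was 0.18. Genes of low count are among these 258. Of the 71 genes at 1000 CPM or more, 43 had a smaller absolute log2 ratio than Mir22, and the median was 0.14. With the spread over all genes taken into account (edgeR's exact test with a common biological coefficient of variation of 12.6%), the adjusted p for Mir22 was 0.990 and the unadjusted p was 0.505. That spread was estimated from the same 2 libraries, so this p restates the place of Mir22 among the genes and adds no separate support. A difference of at least 2-fold with an adjusted p at or under 0.05 in the exact binomial test was found for 3 genes, 1.16%, and Mir22 was not among them.

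**Figure D5:**
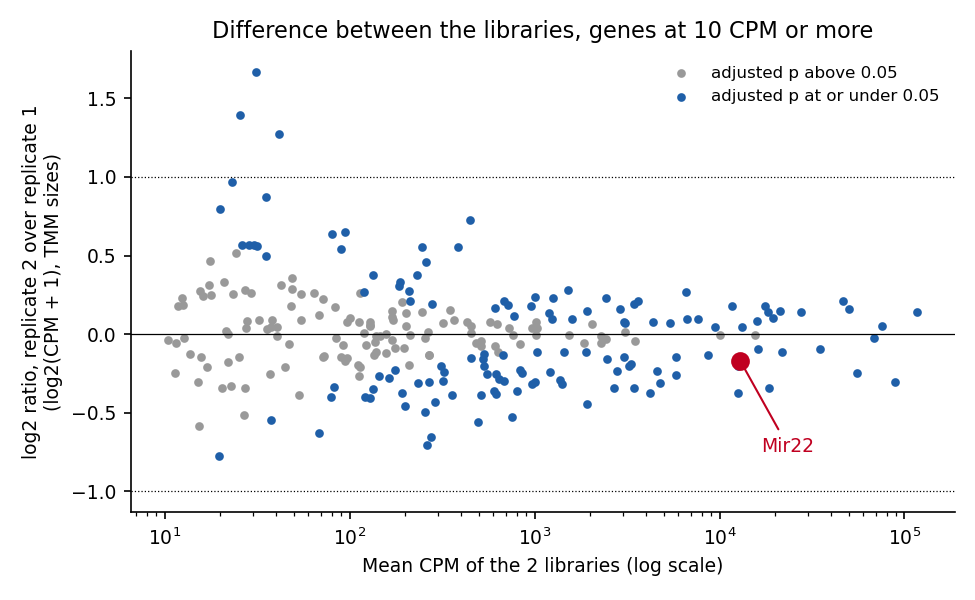
Log2 ratio of replicate 2 to replicate 1 (log2(CPM + 1), TMM sizes) against mean CPM (log scale) for the 258 genes tested; blue points have an adjusted p at or under 0.05 in the exact binomial test, and dotted lines mark 2-fold. Mir22 (red) lies at -0.17, within the range of -0.44 to 0.28 of the genes at 1000 CPM or more.

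The marker lists were summed and compared between the libraries without a test. For scale, the median absolute log2 ratio of the 258 genes tested was 0.18. The endothelial list had a log2 ratio of -0.30, with counts for both members in both libraries, though only 1 member reached 10 CPM in both. The fibroblast list, 3 of 3 members with counts in both, summed to 4780 and 3750 CPM, a log2 ratio of -0.37. Most of that was Mir214, at 4738 and 3708 CPM, with a log2 ratio of -0.37 of its own. Mir199a-2, another member, was at 39.7 and 41.6 CPM, a log2 ratio of 0.05. The erythroid list, Mir451a and Mir144, was the other way, at 384 and 571 CPM, a log2 ratio of 0.55. The skeletal muscle list had a log2 ratio of -0.02, set mostly by Mir206 (-0.03). Its other tested members had larger ratios, in both directions. Mir499 was at -0.66 and Mir133a-1 at -0.21, and Mir486 was at 0.17, Mir1a-2 at 0.55 and Mir133b at 0.57. Mir133a-1 had only 50 and 35 counts and was not called (exact binomial test, adjusted p = 0.626). Mir133b had 57 and 70 counts. Counts of Mir133a-1, Mir133b, Mir1a-2 and Mir486 can leave out reads with several mapping places, so their ratios may not be those of the microRNAs. The leukocyte list, 4 of 4 members with counts in both, summed to 977 and 1048 CPM, a log2 ratio of 0.08. For the smooth muscle list the log2 ratio was -0.09. The part of these cells in the difference of Mir22 was not tested, and in whole muscle fewer cells of a type and less RNA per cell cannot be told apart.

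Of the 23 genes of the growth and metabolism list, 7 were higher and 7 lower in replicate 2 among the 19 tested (exact binomial test, adjusted p at or under 0.05). Over all 258 genes 62 were higher and 72 lower, 51.9% in all. The median log2 ratio of the 19 tested genes of the list was -0.01, and that of all 258 tested genes was also -0.01. Mir195a (-0.44), Mir214 (-0.37), Mir27b (-0.31) and Mir499 (-0.66) were lower in replicate 2, as Mir22 was. Mir1a-2 (0.55), Mir29a (0.46) and Mir378a (0.14) were higher. The count of Mir1a-2 leaves out reads with several mapping places, so its ratio may not be that of the microRNA. Mir206 stood at -0.03.

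The genes most like Mir22 between the libraries were Mir376c (-0.16), Mir130a (-0.19) and Mir100 (-0.15), out of 70 others at 1000 CPM or more. Likeness here is the distance between log2 ratios over 2 libraries, and many genes lie close by. Mir376c, from the Dlk1-Dio3 region, was at 2579 and 2344 CPM, Mir130a at 3506 and 3115 CPM, and Mir100 at 6057 and 5538 CPM.

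The seed of miR-22-3p was last searched for in messenger RNAs, none of which was measured here. The site is the complement of the seed, GGCAGCT, or its longer form GGCAGCTA with an A opposite the first base, read on the mRNA strand in the longest annotated 3′ UTR of each gene (GENCODE vM21). Of 9 genes reported as targets of miR-22 and given here, 8 had the site: Hdac4, Sirt1, Purb, Ppara, Cdk6, Max, Tet2 and Esr1. Ppargc1a, a metabolic coactivator, did not have these letters in its 3930 bases. Of 21037 coding genes with an annotated 3′ UTR, 12.8% had the site and 1.95% the longer form. The listed UTRs are long, with a median of 3930 bases against 960 for all genes, and reported targets are often picked by their seed match, so the count of 8 is a description.

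Sites in genes of muscle growth and metabolism are shown with the match in capitals, on the mRNA strand. Hdac4 represses muscle differentiation genes, Sirt1 is a deacetylase of metabolic control, Ppara drives fatty acid oxidation, and Purb represses muscle myosin genes. The sites lie at chr1:91929849-91929870 (minus, Hdac4), chr10:63320154-63320175 (minus, Sirt1), chr15:85802115-85802136 (plus, Ppara) and chr11:6472741-6472762 (minus, Purb, the second of its 2 sites).
Hdac4: tgcacgccaaactcGGCAGCTt
Sirt1: tttccaaaacttgtGGCAGCTA
Ppara: taggcccctcctttGGCAGCTc
Purb: attttgtactacaaGGCAGCTg

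Sirt1 has the longer form, as does 1 of the 2 sites in Esr1. Among 3′ UTRs within 10% of the same length, the site was found in 30.9% for Hdac4, 17.3% for Sirt1, 16.4% for Ppara and 40% for Purb. A match in these windows is a run of letters and not a measured binding site.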

How the data were processed

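Small RNA of gastrocnemius from 14-day-old male B6CASTF1/J mice was sequenced in 2 libraries of 1 group. The authors deposited raw counts of reads for each microRNA gene in 3 columns by strand, made on mm10 with annotation M21 per the notes deposited with the tables. The aligner, counter and trimming are not given in the sources used here. The own-strand counts were used, and 4 lines that name no gene (72.7% and 73.0% of reads) stayed out of totals and tests. CPM used a pseudocount of 1 for log2 ratios and 0 for ratios between genes.

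Replicates were compared by an exact binomial test given TMM sizes from edgeR 4.0.16 (R 4.3.3), over genes that reached 10 CPM in each library, with Benjamini-Hochberg adjustment at 0.05. A quasi-likelihood fit has no residual degrees of freedom here. DESeq2 1.42.0 size factors, edgeR's exact test, other filters, strands and denominators were alternatives. Hosts and transcripts came from GENCODE vM21, and microRNA sequences from RefSeq, where 1018 of 2202 genes matched by symbol. 1 gene of the target list is not reported here, so the count of target sites is not that of the whole list. Hairpins were folded with ViennaRNA 2.7.2.

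The rule for Mir22 uses no measured value, but Mir22 and all gene lists were chosen with earlier results of these data known. Genes named are Mir22, 5 neighbours on each side in mean CPM, the 3 nearest log2 ratios at 1000 CPM, microRNA genes within 500 kb, the 3 highest genes with a long non-coding host and the growth and metabolism list. The skeletal muscle, heart, erythroid, leukocyte, endothelial, smooth muscle, fibroblast, liver and neuron lists served as cell markers. The liver list, Mir122, summed to 108 and 132 CPM.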

Additional observations from a re-analysis of the deposited data

How the results depend on the processing

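The level of Mir22 depends on the denominator. It was 16920 CPM with either strand counted, 14696 CPM without the most abundant gene in the total, 4543 CPM of mapped reads and 3523 CPM of all reads. With TMM or DESeq2 sizes it was 12981 and 12979 CPM, and leaving out a replicate gave 12284 to 13670 CPM. Its rank was 18 with either strand counted, 23 per base of hairpin and 20 to 21 leaving out a replicate. Among genes with RefSeq mature sequences found in no other hairpin of the table (chosen after seeing the data) its rank was 18. That move came from Mir378a and Mir143, which stand above Mir22 and were not matched to RefSeq. Of the 17 matched genes above Mir22, 0 had a mature sequence in another hairpin. By host its rank was 5 in each of 3 other settings. No genome sequence was used, so the planned ranking by genome copies was not run. The host rank by gene bodies has no value, since Mir22 then falls outside the class. The log2 ratio to Mir206 ranged from -2.47 to -2.32 leaving out a replicate.

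The log2 ratio between the replicates was -0.12 to -0.20 over other scalings, filters, strands and pseudocounts, and passed the exact binomial test in these 6 settings. With edgeR's exact test it was -0.17 with an adjusted p of 0.990, and 3 genes were called in place of 134, with 17 at an unadjusted p under 0.05. Other settings called 114 to 135 genes, but over 178 to 629 genes tested, so the share called depends on the filter. It was 114 of 244 with either strand counted, 118 of 178 at 100 CPM and 129 of 629 with every counted gene. Total counts and DESeq2 sizes called 133 and 135 of 258. No paired analysis was possible because there is 1 group. By counting error alone the depth resolves differences of a few percent for Mir22, but PCR reads are not independent molecules. The spread over genes was estimated from the same 2 libraries, so edgeR's exact test cannot decide if differences of that size are resolved. The number of libraries, 2, also limits what can be said of animals.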
